A study of Mus musculus with 8 samples.

Results

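Lysosomal hydrolases and membrane proteins were followed in bone marrow-derived macrophages (BMDM) treated with bilirubin, as 44 genes taken by symbol from the gene count table. The 44 genes comprised 11 proteases, 13 glycosidases, 5 sulfatases, 8 lipid enzymes and lipid-handling proteins, 5 membrane proteins, the transcription factor Tfeb and the granulin precursor Grn. All 44 were found among the 53819 genes of the table, each under a single gene identifier, and all 44 were among the 13722 genes with enough reads to be tested. Marrow came from 4 female BALB/cJ mice of 8 weeks, for which the labels name no transgene or deletion, and was differentiated for 5 days with M-CSF at 25 ng/mL, the growth factor that drives marrow progenitors to macrophages. Cells of each mouse were then split between 2.5 µM bilirubin and vehicle (DMSO) for 48 h, which gave 4 vehicle and 4 bilirubin libraries of poly(A) RNA paired by mouse. Bilirubin is the end product of heme breakdown, and the study asked how it alters macrophages. Cultures were primary cells of 1 age, sex and strain, and only 1 dose and 1 time were measured.

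Lysosomes are acidified by a proton pump in their membrane, and their lumen holds hydrolases that cut proteins, glycans, sulfated glycosaminoglycans and lipids delivered by endocytosis, phagocytosis and autophagy. Most soluble hydrolases are tagged with mannose phosphate in the Golgi and carried to the lysosome by sorting receptors, while heavily glycosylated proteins such as LAMP1 and LAMP2 line the membrane. Macrophages are rich in these proteins, and the factor TFEB and its relatives are known to raise many lysosomal genes together by binding a short palindromic element in their promoters, often called the CLEAR element.

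Libraries held 37747315 to 47071714 counts in the vehicle group and 34142781 to 41054034 in the bilirubin group. Macrophage markers were present in every library, with 8 of 8 markers tested. They summed to 5241 to 5510 CPM (counts scaled to a common library size by TMM) with vehicle and 5291 to 6038 with bilirubin. Of these markers 3 were called higher with bilirubin (Adgre1, Itgam and Cd14). Mrc1, Fcgr1, Cd68, Mertk and Csf1r had negative log2 fold changes, between -0.40 and -0.02, and were not called, although Cd68 and Mertk were lower in all 4 mice. Neutrophil markers summed to 33 to 39.8 CPM with vehicle and 45.2 to 54.2 with bilirubin (3 of 10 tested). S100a8 was higher, with means of 11.5 and 24.4 CPM, while Csf3r at 23.9 and 23.1 CPM was not called. Each of the others had a mean below 1 CPM in both groups, with Retnlg at 0. Stromal markers summed to 3.85 to 9.51 and 3.32 to 9.40 CPM. Dendritic cell, lymphocyte, mast cell and erythroid markers each summed to less than 1 CPM in every library. The part of these other cells in the results below was not tested.

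The members were among the most abundant mRNAs of these cells. Their summed level in TPM, a scale corrected for transcript length and for the size of the library, was 45743 ± 1753 with vehicle (SD, n = 4) and 43386 ± 2349 with bilirubin, and these ranges overlapped. Of the 44 genes, 24 stood at or above the 90th percentile of TPM among tested genes and 43 at or above the 50th. With vehicle the aspartic protease Ctsd was the most abundant at 11063 ± 550.3 TPM, followed by the cysteine proteases Ctsl at 8297 ± 1153 and Ctsb at 6847 ± 121 TPM. Psap, the precursor of the saposins that help enzymes reach sphingolipids, stood at 3732 ± 135 TPM and Ctss, a cathepsin used in antigen processing, at 3295 ± 84.7 TPM. The least abundant member was the cysteine protease Ctsf at 6.95 TPM. Proteases made up 33239 ± 1579 of the summed TPM with vehicle, compared to 2335 ± 86.7 for glycosidases and 332 ± 6.73 for sulfatases.

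Compared to vehicle, bilirubin lowered 11 of the 44 members and raised 1 at an adjusted p below 0.05 (edgeR quasi-likelihood test with mouse as a block, Benjamini-Hochberg adjustment over all 13722 genes). Across all genes tested, 7.53% were called, 3.04% lower and 4.49% higher. Lower calls were 25% of members, above that background. The single higher call was 2.27% of members, and with 1 gene it cannot be told apart from its background. The list was chosen with earlier results of these data known, so its shares are descriptive and were not tested. The shares over all genes are the background for each class of members below. Members were more abundant than most genes tested, and shares among genes of like abundance were not compared. The downregulated members were the sulfatases Arsb and Galns, the glycosidases Hpse, Glb1, Man2b1 and Hexa, the proteases Ctsd, Ctsh and Tpp1, the thioesterase Ppt1 and the membrane protein Laptm5, and the upregulated member was the protease Ctsz. Changes were modest, with lower calls between -0.55 and -0.13 on the log2 scale. The remaining 32 members had log2 fold changes between -0.23 and 0.35. Because these are bulk libraries, fewer cells of a type and less of an mRNA per cell cannot be told apart.

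The direction was lower for 34 members and higher for 10 (37 and 7 with scaling by total count alone), with a median log2 fold change of -0.07 beside 0.00 over all genes. Of the 13722 genes tested, 6961 were lower and 6761 higher. Within mice 1 to 4 the median difference of the members was -0.06, -0.06, -0.14 and -0.05. The same direction was seen in all 4 mice for 21 members (47.7%), compared to 28.4% of all genes tested. Of these members 18 were lower, and of the 13722 genes tested 1908 were lower in all 4 mice. The 8 vehicle and bilirubin values in CPM did not overlap for 8 lower members (4.69% of all genes) and for 2 higher ones, Ctsz and Ids (5.93% of all genes). In TPM the means of Ids were 22.6 with vehicle and 22.7 with bilirubin. Among the 11 downregulated members the fall was largest in mouse 3 for 6 of them and smallest in mouse 1 for 6 and in mouse 2 for 5. Leaving out mouse 1 gave 15 lower calls among the members (6.43% of all genes tested were then lower), leaving out mouse 2 gave 8 (1.55%), leaving out mouse 3 gave 5 (0.816%) and leaving out mouse 4 gave 5 (1.01%). When the pairing by mouse was not used, 6 members were called lower (1.66% of all genes), and Ctsh, Hexa, Laptm5, Man2b1 and Tpp1 lost their calls. When libraries were scaled by total count alone, 14 members were lower and 1 higher, while the split over all genes went from 616 higher and 417 lower to 527 higher and 556 lower.

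**Figure D1:**
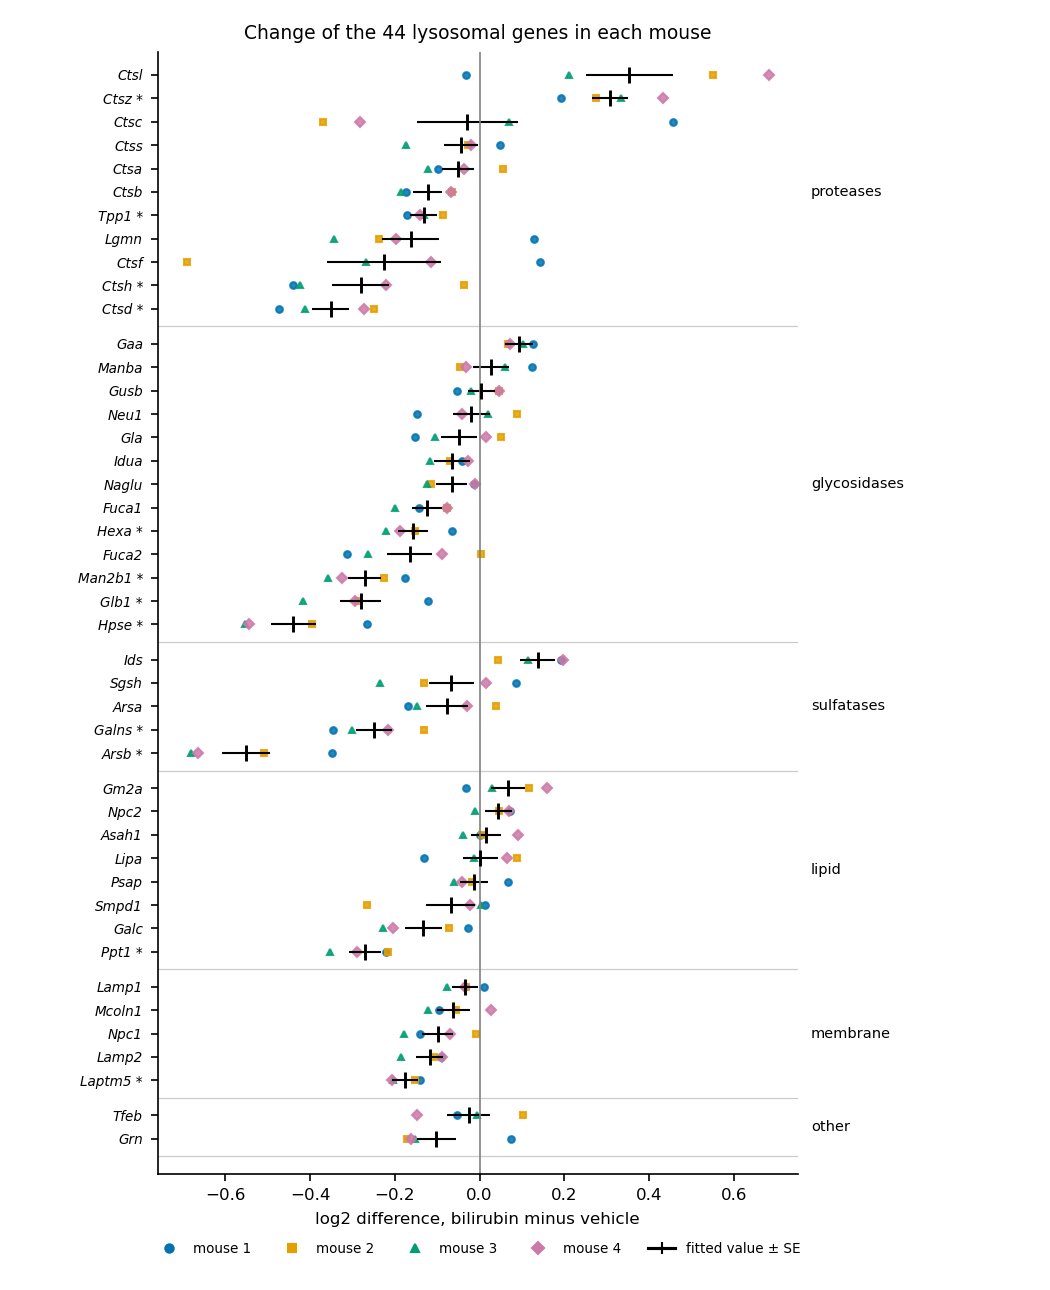
Log2 fold change of bilirubin against vehicle for the 44 members, grouped by class, with the fitted value and its standard error as a bar and the log2 CPM difference within each of the 4 mice as points; stars mark genes past the adjusted p threshold. Arsb lay lowest at -0.55, and the upper end was held by Ctsl at 0.35, whose 4 mice were spread widely, and Ctsz at 0.31.

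Promoters were examined because many of the genes moved the same way, and the windows below carry the letters of interest for members on either side of the test. In the RefSeq promoter table (GRCm38.p6, 250 bases before to 50 after the gene start), 39 of the 44 members had an entry, and those without were Asah1, Ctsb, Ctsh, Galns and Npc1. The letters CACGTG, which read the same on both strands and form the core of the CLEAR element, were held by 13 of 39 member promoters (33.3%) and by 8.09% of the 27025 genes in the table. The longer GTCACGTG or its reverse complement CACGTGAC, which contains those letters, was held by 10 of 39 (25.6%) beside 2.55% of all genes. As the element is already known from promoters of many lysosomal genes, these shares do not bear on the comparison of bilirubin with vehicle. Of the 10 called members with an entry 2 held CACGTG (Ctsd and Glb1), and of the 29 others 11 did (Arsa, Ctsa, Ctsf, Ctsl, Gaa, Gla, Lamp1, Lgmn, Mcoln1, Naglu and Sgsh). A 10-letter form that contains both longer runs above, and reads the same on both strands, was also searched. It was held by 0 of 39 member promoters, beside 0.37% of all genes. A match is a run of letters and not a measured binding site. The 120 bases before the start are shown 5′ to 3′ on the strand of the gene, with CACGTG in capitals, for Lamp1 and Mcoln1, which held the most copies in this window and were not called, for the downregulated Ctsd and Glb1, which held 1 each, and for Arsb, Hpse and Ctsz, which changed and held none.
Lamp1, chr8:13159041-13159160, plus strand: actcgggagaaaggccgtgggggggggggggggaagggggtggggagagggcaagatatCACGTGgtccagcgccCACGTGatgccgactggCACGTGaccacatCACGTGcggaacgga
Mcoln1, chr8:3500399-3500518, plus strand: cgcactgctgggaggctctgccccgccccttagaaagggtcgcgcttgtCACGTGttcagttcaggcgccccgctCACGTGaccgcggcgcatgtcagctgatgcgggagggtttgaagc
Ctsd, chr7:142387828-142387947, minus strand: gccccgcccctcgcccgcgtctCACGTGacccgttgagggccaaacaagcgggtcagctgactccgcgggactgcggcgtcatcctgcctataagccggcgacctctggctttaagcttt
Glb1, chr9:114400958-114401077, plus strand: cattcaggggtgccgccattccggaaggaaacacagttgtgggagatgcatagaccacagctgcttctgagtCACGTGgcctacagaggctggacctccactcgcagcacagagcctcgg
Arsb, chr13:93771559-93771678, plus strand: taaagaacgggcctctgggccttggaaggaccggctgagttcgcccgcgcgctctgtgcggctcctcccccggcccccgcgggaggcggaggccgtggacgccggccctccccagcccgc
Hpse, chr5:100719717-100719836, minus strand: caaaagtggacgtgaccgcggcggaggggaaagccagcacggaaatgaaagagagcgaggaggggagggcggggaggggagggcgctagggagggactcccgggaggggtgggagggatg
Ctsz, chr2:174439040-174439159, minus strand: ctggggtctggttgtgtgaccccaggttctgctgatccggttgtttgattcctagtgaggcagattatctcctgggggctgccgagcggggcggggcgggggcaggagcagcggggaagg

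Proteases moved in both directions, with 1 of 11 upregulated, 3 downregulated and a median log2 fold change of -0.12. Ctsd, the main lysosomal aspartic protease, was read at 13934, 14664, 13869.9 and 12964 CPM in vehicle mice 1 to 4 and at 10042, 12339, 10422 and 10728 CPM with bilirubin. Every bilirubin library was below every vehicle library, and mouse 2 fell least. The log2 fold change was -0.35 (SE 0.04, edgeR adjusted p = 0.00192), from a mean of 13858 ± 696 to 10883 ± 1010.4 CPM. Ctsd lies on chromosome 7 from 141929646 to 141941775 on the minus strand of GRCm39, and the overlapping Gm49369 on the same strand went from 274 to 184 CPM, so that its reads could be divided between both.

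Ctsz, a carboxypeptidase of the cathepsin family, was the only upregulated member and was found at 970.2, 1027, 974 and 928 CPM with vehicle and at 1108, 1242, 1227 and 1253 CPM with bilirubin. All 4 bilirubin libraries exceeded all vehicle libraries, with the smallest rise in mouse 1. The log2 fold change was 0.31 (SE 0.04, edgeR adjusted p = 0.00336), and the gene moved from the ninth to the sixth place among members by TPM. Ctsz lies on chromosome 2 from 174267304 to 174280832 and overlaps Nelfcd on the opposite strand, which was at 31.8 CPM with vehicle and 28.8 with bilirubin.

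Ctsl, a broad cysteine endopeptidase, had the largest upward log2 fold change of all members at 0.35 (SE 0.10, 95% interval 0.12 to 0.59) but did not pass the test (edgeR adjusted p = 0.0838). Its CPM values were 5075, 6307, 6815 and 5277 with vehicle and 4965, 9241, 7887 and 8472 with bilirubin. Mouse 1 showed no rise, with a log2 difference of -0.03 beside 0.55, 0.21 and 0.68 in mice 2 to 4, and without mouse 1 the log2 fold change was 0.48 with an adjusted p of 7.33e-04. The ratio of Ctsl to Ctsd in TPM was 0.645, 0.761, 0.878 and 0.716 in the vehicle libraries and 0.868, 1.327, 1.34 and 1.393 in the bilirubin libraries. Ctsl was therefore below Ctsd in all vehicle libraries and above it in 3 of 4 bilirubin libraries. This ratio was chosen after the values were seen and was not tested.

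Ctsh, an aminopeptidase, was at 87.9, 83.9, 86.4 and 80.2 CPM with vehicle and at 64.8, 81.8, 64.4 and 68.8 CPM with bilirubin, with a log2 fold change of -0.28 (SE 0.07, edgeR adjusted p = 0.0412). Mouse 2 barely moved, and its bilirubin value lay within the vehicle range. The call was lost without mouse 3 (adjusted p = 0.241) or mouse 4 (0.141). Tpp1, a tripeptidyl peptidase, was at 407, 402, 359 and 362 CPM with vehicle and at 361, 378, 328 and 329 CPM with bilirubin, and the log2 fold change was -0.13 (SE 0.03, adjusted p = 0.0416). The groups overlapped, although each mouse was lower with bilirubin, and the call was lost without mouse 2, 3 or 4 (adjusted p of 0.101, 0.198 and 0.22). With transcript length as an offset, the Tpp1 log2 fold change was -0.04.

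The other 6 proteases did not pass the test. Ctsb, the second cysteine cathepsin by abundance after Ctsl, had a log2 fold change of -0.12 (95% interval -0.20 to -0.04, edgeR adjusted p = 0.0742) and was lower in all 4 mice. Lgmn, an asparaginyl endopeptidase that matures cathepsins, was higher in mouse 1 by 0.13 and lower in mice 2 to 4, and without mouse 1 it was called at -0.26. Ctsc, which activates serine proteases of granules, differed by 0.46, -0.37, 0.07 and -0.28 on the log2 scale in mice 1 to 4. These mice did not share a direction. Ctss at -0.04, Ctsa at -0.05 and Ctsf at -0.23 had 95% intervals that included 0.

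**Figure D2:**
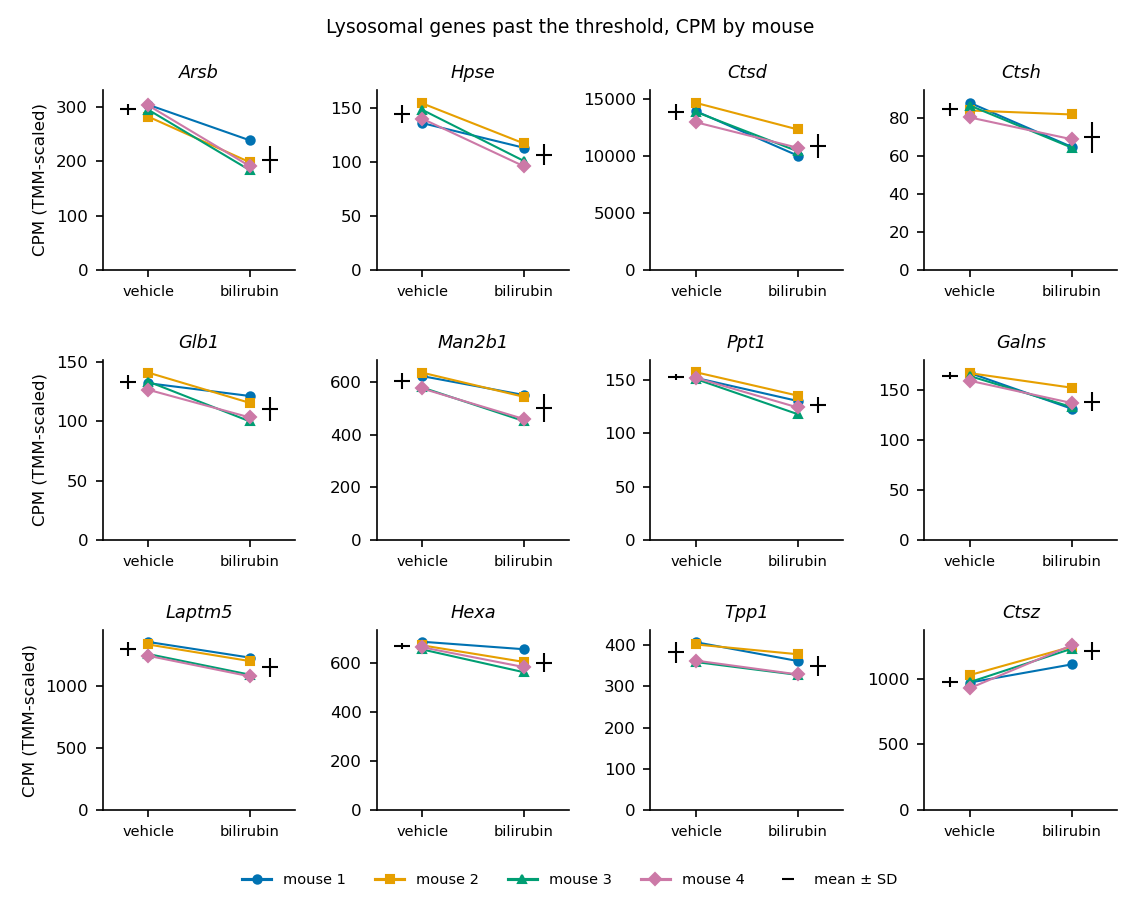
CPM in each library for the members called by the test, with vehicle and bilirubin values of the same mouse joined by a line and the mean and SD of each group beside them. Arsb, Hpse, Ctsd and Ctsz showed no overlap between groups, whereas Ctsh, Hexa and Tpp1 overlapped.

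Among the 13 glycosidases 4 were downregulated and none upregulated, with a median log2 fold change of -0.07. Hpse, the heparanase that cuts heparan sulfate chains, fell the most, from 136, 154, 148 and 140.1 CPM with vehicle to 113, 117, 101 and 96.1 CPM with bilirubin. The groups did not overlap, and the log2 fold change was -0.44 (SE 0.05, edgeR adjusted p = 0.00184). Man2b1, the lysosomal alpha-mannosidase, was at 624, 637, 581 and 577 CPM with vehicle and 552, 545, 453 and 461 CPM with bilirubin. Its groups did not overlap either, and its log2 fold change was -0.27 (SE 0.04, adjusted p = 0.00423).

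Glb1, the beta-galactosidase, was at 132, 141, 133 and 127 CPM with vehicle and at 121, 116, 99.9 and 103 CPM with bilirubin. These groups did not overlap and the log2 fold change was -0.28 (SE 0.05, edgeR adjusted p = 0.0105), but the call was lost without mouse 2, 3 or 4 (adjusted p of 0.0594, 0.0828 and 0.0726). Glb1 shares its strand with Tmppe, which was at 21.5 CPM with vehicle and 20.4 with bilirubin. Hexa, the alpha subunit of beta-hexosaminidase, was at 687, 672, 655 and 664 CPM with vehicle and at 656, 604, 562 and 583 CPM with bilirubin. Mouse 1 with bilirubin lay inside the vehicle range. The log2 fold change was -0.16 (SE 0.04, adjusted p = 0.0349), and the call was lost without mouse 2, 3 or 4 (adjusted p of 0.13, 0.213 and 0.207). The 9 other glycosidases had log2 fold changes between -0.17 and 0.09. Gusb, the beta-glucuronidase, was at 705 CPM with vehicle and 708 with bilirubin, with a 95% interval of the log2 fold change from -0.07 to 0.08. Gaa, which degrades glycogen, was higher in all 4 mice, with a log2 fold change of 0.09 that did not pass (adjusted p = 0.153).

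Sulfatases held the largest single fall. Arsb, which removes sulfate from dermatan and chondroitin sulfate, was at 304, 283, 295 and 303 CPM with vehicle and at 239, 199, 184 and 191 CPM with bilirubin. The lowest vehicle library was above the highest bilirubin library, and the log2 fold change was -0.55 (SE 0.06, 95% interval -0.68 to -0.42, edgeR adjusted p = 7.99e-04). Galns, which acts on keratan and chondroitin sulfate, was at 167, 166, 163 and 159 CPM with vehicle and at 131, 152, 133 and 137 CPM with bilirubin. Its groups did not overlap, with a log2 fold change of -0.25 (SE 0.04, adjusted p = 0.00978), and the call was lost without mouse 3 (0.0965) or mouse 4 (0.0565).

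The other 3 sulfatases, Arsa, Ids and Sgsh, did not pass. Ids, which acts on heparan and dermatan sulfate, was at 64.3, 66.9, 62.1 and 60.3 CPM with vehicle and at 73.4, 68.9, 67.2 and 69.1 CPM with bilirubin. These values did not overlap, and the log2 fold change was 0.14 (SE 0.04, edgeR adjusted p = 0.0906). On the TPM scale, which corrects for transcript length, Ids was at 22.6 ± 2.54 with vehicle and 22.7 ± 1.38 with bilirubin, and only mouse 3 was higher. In TPM the summed sulfatases went from 332 ± 6.73 to 266 ± 19.7 (SD, n = 4 each), and of the 6 classes it was the only one whose sums did not overlap, with 328 to 343 for vehicle and 251 to 293 for bilirubin. This fall lay mostly in Arsb, from 119 to 79.5 TPM, and Galns, from 110 to 90.2 TPM. Arsa went from 26.8 to 24.0 TPM and Sgsh from 53.4 to 50.1 TPM. Sums of the glycosidases were 2249 to 2415 TPM with vehicle and 1936 to 2265 TPM with bilirubin, and those of the proteases 31415 to 34593 and 28992 to 35111 TPM.

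**Figure D3:**
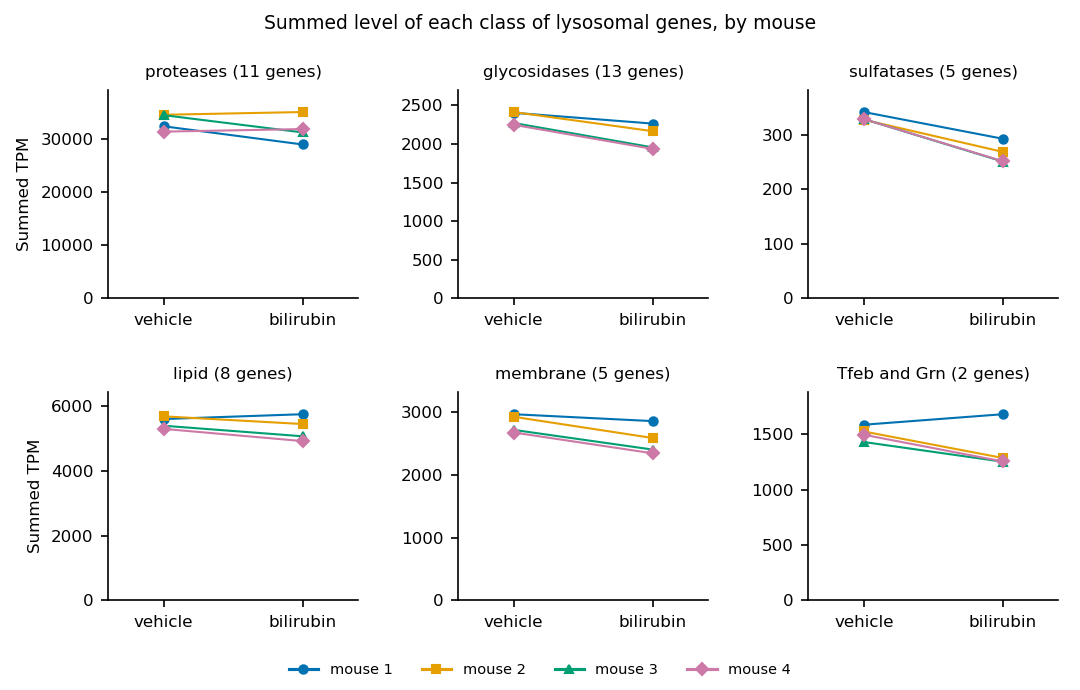
Summed TPM of each class in the 8 libraries, with points for libraries and lines joining both libraries of a mouse. Sums of the sulfatases separated the groups (332 against 266 TPM on average), mostly through Arsb and Galns, while proteases, lipid enzymes and membrane proteins overlapped.

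Lipid enzymes and lipid-handling proteins were the class with the median nearest to 0, at -0.01, with 1 of 8 members called. That member was Ppt1, which removes palmitate from proteins, at 152, 157, 151 and 152 CPM with vehicle and 130.5, 136, 118 and 124 CPM with bilirubin. The groups did not overlap, and the log2 fold change was -0.27 (SE 0.04, edgeR adjusted p = 0.00338). Ppt1 lies on chromosome 4 from 122730010 to 122754948 and overlaps the abundant Cap1 on the opposite strand, which was at 1437 CPM with vehicle and 1264 with bilirubin. Whether the counting used strand is not given in the sources used here, so any reads of sequence shared by overlapping genes on opposite strands, here and for Ctsz, are uncertain.

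Psap was at 5954, 6209.8, 5817 and 5718 CPM with vehicle and at 6238, 6136, 5574 and 5554 CPM with bilirubin. The values were interleaved, and the log2 fold change was -0.01 with a 95% interval of -0.09 to 0.06. Lipa, the acid lipase that frees cholesterol from its esters, and Npc2, which binds the freed cholesterol, had log2 fold changes of 0.00 and 0.04. Asah1, Gm2a, Galc and Smpd1, which act on sphingolipids or help their breakdown, lay between -0.13 and 0.07 and were not called.

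All 5 membrane proteins had negative log2 fold changes, between -0.18 and -0.03, and 1 passed the test. Laptm5, a transmembrane protein of lysosomes in blood cells, was at 1351, 1331, 1254 and 1239.9 CPM with vehicle and at 1225, 1197, 1088 and 1075 CPM with bilirubin. The groups did not overlap, and the log2 fold change was -0.18 (SE 0.03, edgeR adjusted p = 0.0111), but the call was lost without mouse 3 (0.0974) or mouse 4 (0.109). Lamp1, among the most abundant glycoproteins of the lysosomal membrane, was at 1931, 1920.5, 1793 and 1775 CPM with vehicle and at 1944, 1877, 1699 and 1732 CPM with bilirubin. Its groups overlapped widely, with a log2 fold change of -0.03 and a 95% interval of -0.10 to 0.04. Lamp2 at -0.12, the cholesterol transporter Npc1 at -0.10 and the calcium channel Mcoln1 at -0.06 were not called.

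The mRNA of Tfeb was at 37.5 CPM with vehicle and 36.9 with bilirubin, and the log2 fold change of -0.03 had a 95% interval of -0.14 to 0.09. TFEB is mainly controlled by phosphorylation and its place in the cell, which were not measured. Grn, whose product is cut to granulins in the lysosome, was at 2017, 1992, 1860.0 and 1953 CPM with vehicle and at 2124, 1768, 1675 and 1745 CPM with bilirubin. Mouse 1 was higher with bilirubin and the other 3 mice were lower, so that the log2 fold change of -0.10 (SE 0.05) did not pass (edgeR adjusted p = 0.253). Without mouse 1 it was -0.16 with an adjusted p of 0.00292.

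**Figure D4:**
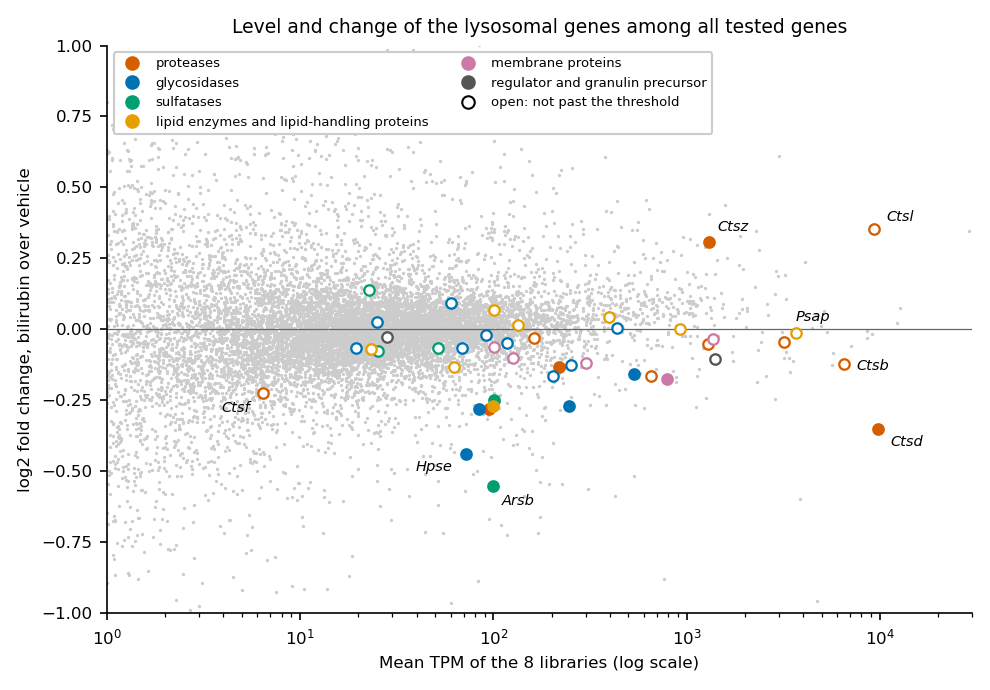
Log2 fold change of each member against its mean TPM on a log axis, filled where the gene passed the test and open where it did not, with all tested genes in grey within the plotted range. Members spread widely over the levels, with Ctsd and Ctsl both near the upper end at -0.35 and 0.35.

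Transcript estimates showed that 43 of 44 members had a protein-coding leading transcript, defined as the one with the largest share of the gene. The exception was Arsa, whose leading transcript Arsa-201 retains an intron. The leading share moved by less than 3 points between groups in 39 members. Arsb-201 held 99.9% of Arsb with vehicle, and Ctsd-202 held 99.6% of Ctsd in both. Hpse-201 went from 83.4 ± 3.48% to 88.0 ± 4.39%, with overlapping values, and was higher in 3 of 4 mice. Idua-202 went from 68.8 ± 11.8% to 77.2 ± 15.4%, within the spread between mice and with mouse 1 at 54.9% in both libraries. Ctsh-201 was at 79.9 ± 13.1% with vehicle and 91.9 ± 6.26% with bilirubin, but it was higher in only 2 of 4 mice. These shares were estimated from short reads and were not tested.

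Other genes of the lysosome moved in both directions. Of 98 tested genes from 107 listed, 13 were upregulated and 8 downregulated (13.3% and 8.16%), with a median log2 fold change of -0.01. Over all genes tested these shares were 4.49% and 3.04%, and they are the background for each list below. Without mouse 3 or without mouse 4 the counts were 7 and 3 in each case. The shares of all genes were then 1.93% and 0.816% without mouse 3, and 2.2% and 1.01% without mouse 4. In the proton pump, 2 of 17 subunits were upregulated and 1 was downregulated. Atp6v0c, the subunit of the membrane ring, was at 669, 669, 605 and 618 CPM with vehicle and 839, 846, 858 and 851 CPM with bilirubin, and the groups did not overlap (log2 fold change 0.41, SE 0.04, edgeR adjusted p = 6.66e-04). Atp6v0b, another ring subunit, had a log2 fold change of 0.14, and its call was lost without mouse 2, 3 or 4 (adjusted p of 0.173, 0.181 and 0.18), without the pairing (0.0955), with scaling by total count alone (0.0822) and with the length offset (0.102). Atp6v0a1, which pairs with the ring, went from 350.1 ± 21.0 to 285 ± 23.6 CPM (log2 fold change -0.30, adjusted p = 0.00185).

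Of 14 genes of hydrolase sorting and maturation, 1 was upregulated and 3 were downregulated. Igf2r, the large mannose phosphate receptor, was at 565, 535, 542 and 526 CPM with vehicle and 667, 666, 680.5 and 654 CPM with bilirubin, without overlap (log2 fold change 0.30, edgeR adjusted p = 0.00101). Downregulated were Gnptab, which makes the mannose phosphate tag, at -0.24, the sorting receptor Sort1 at -0.20 and Scarb2, the receptor that delivers glucocerebrosidase, at -0.28. Without mouse 3 or mouse 4 the calls of Gnptab (adjusted p of 0.148 and 0.0961) and Sort1 (0.166 and 0.151) were lost. Those of Sort1 (0.0793) and Scarb2 (0.0681) were lost without the pairing by mouse. With the length offset those of Gnptab (0.14) and Sort1 (0.0599) were lost.

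Among 22 other hydrolases tested, 5 were upregulated and 2 downregulated. Ctsk, a cathepsin known for degrading collagen in bone, was at 26.2, 22.3, 30.1 and 24.8 CPM with vehicle and 56.2, 57.1, 87.4 and 77.9 CPM with bilirubin. Acp5, the tartrate-resistant acid phosphatase, was at 7.59, 5.48, 6.97 and 7.10 CPM with vehicle and 15.8, 12.8, 20.8 and 17.5 CPM with bilirubin. Both genes were higher in every bilirubin library than in any vehicle library, with log2 fold changes of 1.41 (SE 0.08, edgeR adjusted p = 5.51e-05) and 1.29 (SE 0.09, 1.65e-04), larger than that of any of the 44 members. Ctsk and Acp5 are also osteoclast markers, and the 7 markers of that list summed to 99.9 to 110.3 CPM with vehicle and 146 to 183 with bilirubin. Of 5 tested markers 3 were upregulated, with Dcstamp in addition, at means of 0.53 CPM with vehicle and 1.76 with bilirubin. Nfatc1, the largest part of the vehicle sum, was at 70.8 and 73.6 CPM and was not called. Ocstamp, at 0.44 and 0.35 CPM, was not called either, and Calcr and Oscar were at 0 in all libraries. The part of such cells was not tested.

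Lyz2, the macrophage lysozyme, rose from 19145 ± 248 to 24368 ± 848 CPM (log2 fold change 0.35, edgeR adjusted p = 5.13e-04), although reads could be divided between it and its near-identical copy Lyz1. Lyz1 was at 12.4 CPM with vehicle and 17.1 with bilirubin and was also called higher (log2 fold change 0.47, adjusted p = 0.0173). Of 24 other membrane proteins tested, 3 were upregulated and none downregulated: the metal transporter Slc11a1 at 0.31, the chloride transporter Clcn7 at 0.18 and the channel Mcoln2 at 0.66. Without mouse 3 or mouse 4 these calls were lost for Mcoln2 (adjusted p of 0.0705 and 0.0642), Slc11a1 (0.126 and 0.102) and Clcn7 (0.128 and 0.0869), and without mouse 2 for Slc11a1 (0.0784) and Clcn7 (0.067). With the length offset the calls of Mcoln2 (0.0567), Slc11a1 (0.0569) and Clcn7 (0.169) were lost, and that of Clcn7 also without the pairing (0.0641).

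The cysteine protease inhibitor Cstb was the only one called of 3 cystatins tested. It was at 270, 294, 293 and 291 CPM with vehicle and 309.7, 361, 366 and 377 CPM with bilirubin, without overlap (log2 fold change 0.30, SE 0.04, edgeR adjusted p = 0.00214). Of 18 genes for the TFEB family and for nutrient sensing at the lysosome, 1 was upregulated and 2 were downregulated. Tfec, a relative of TFEB found in macrophages, rose with a log2 fold change of 0.28, while the GTPase Rragd at -0.30 and Fnip2 at -0.20, both parts of nutrient signalling to TFEB and its relatives, fell. All 3 calls were lost without mouse 3 (adjusted p of 0.166, 0.0897 and 0.169) or without mouse 4 (0.165, 0.0618 and 0.141), and Rragd and Fnip2 also without the pairing (0.511 and 0.162). The calls of Tfec (0.115) and Fnip2 (0.102) were also lost with the length offset.

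**Figure D5:**
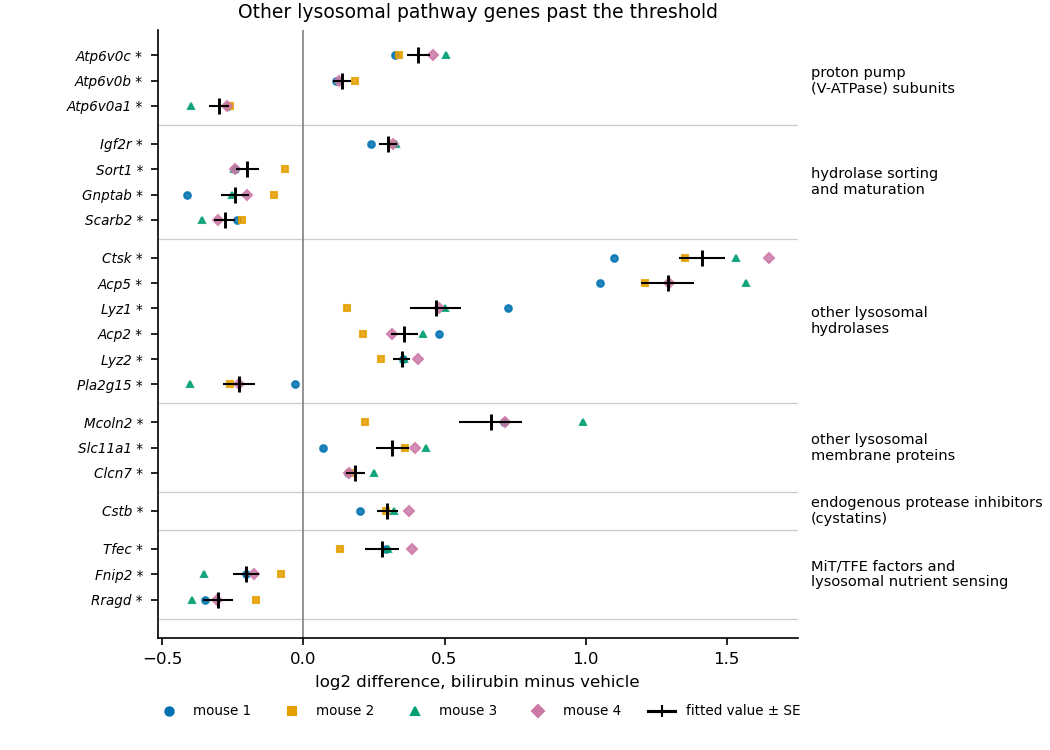
Log2 fold change of other lysosomal genes past the adjusted p threshold, by list, with the value within each of the 4 mice as points, the fitted value and its standard error as a bar. Ctsk at 1.41 and Acp5 at 1.29 stood apart from the other hydrolases.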

How the data were processed

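BMDM libraries of 4 mice, each given vehicle and bilirubin, were analysed. The authors trimmed reads (Cutadapt 3.4 through Trim Galore 0.6.7), aligned them with STAR 2.7.9a to GRCm39, and deposited Salmon 1.10.1 estimated counts per gene and, for each library, estimated counts and TPM per transcript. Estimated counts were rounded, genes were kept by edgeR filterByExpr (minimum count 10, total 15), scaled by TMM and tested with the edgeR 4.0.16 quasi-likelihood test with mouse as a block in R 4.3.3. Pairing came from the labels, since the same number marks the same animal. Deviations from group means correlated by 0.108, 0.134, 0.108 and -0.005 within mice 1 to 4, and by -0.16 to 0.075 between mice. CPM was scaled by TMM, and differences within a mouse were taken on log2 CPM with a prior count of 2. TPM of a gene is the sum over its transcripts. Alternatives were no block, DESeq2 1.42.0, limma-voom 3.58.1, other scalings, other filters, a length offset and each mouse left out. Members and lists were chosen with earlier results of these data known. Named genes were the called members, the most abundant and the most changed member of each class, and up to 4 called genes with the smallest adjusted p of each other list. Further genes were named after their values were seen. A called gene among the other hydrolases is not reported here.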

Additional observations from a re-analysis of the deposited data

Results flagged for a closer look

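Each member was screened in both groups of 4 libraries (88 groups) for 1 library far from the other 3. The screen marked 1 group, Gm2a in the vehicle libraries. Gm2a, the activator protein that presents a ganglioside to beta-hexosaminidase, was at 243 CPM in mouse 4 and between 258.9 and 259.3 CPM in the other 3 vehicle libraries, a gap of 0.974 of the range. Chance alone marks about 1 in 20 such groups. Gm2a was not called in the comparison of bilirubin with vehicle (log2 fold change 0.07, edgeR adjusted p = 0.403).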

How the results depend on the processing

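Arsb, Hpse, Ctsd, Ppt1 and Ctsz kept their direction and their call under all 12 alternatives. Members called lower numbered 11, and 6 without the mouse pairing (no replicate block), 18 without a filter on low counts, 8 with the length offset (beside 1.66%, 2.97% and 1.42% of all genes, against 3.04% in the main comparison) and 5 to 15 with 1 mouse left out. Members called higher numbered 1, and 2 without the filter (3.53% of all genes) and 1 to 2 with 1 mouse left out (1.93% to 7.46%). Of the other lysosomal genes, the 13 higher were 6 with the length offset (2.77% of all genes) and 7 to 18 with 1 mouse left out (1.93% to 7.46%). The 8 lower were 3 without the pairing (1.66%), 4 with the length offset (1.42%) and 3 to 11 with 1 mouse left out (0.816% to 6.43%). Without the pairing, Ctsh, Hexa, Laptm5, Man2b1 and Tpp1 lost their calls (adjusted p of 0.0527, 0.12, 0.1, 0.0542 and 0.31). Ctsh, Hexa and Tpp1 also lost them with the length offset (0.0912, 0.0725 and 0.672). The log2 fold change of Psap ranged from -0.0429 to 0.0011 with 1 mouse left out, and changed sign without mouse 3. The causes of these changes were not tested. Intervals came from the edgeR fit with mouse as a block, in which the variance of a gene is drawn toward that of other genes. They need not match the spread of the 4 mice for a single gene, and they concern 1 experiment.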
